A study of Mus musculus with 20 samples.

Results

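Genes of DNA replication and mitosis were followed in LLC-1 tumors, implants of the Lewis lung carcinoma cell line, on 20 Affymetrix arrays. The genes were a list of 47 named for these roles, each read from 1 probe set with a single gene symbol and, where a gene had several, from the one with the highest mean over the arrays. Of the 47 listed genes 46 were measured, out of 19938 genes in all, and Ccnb1, the other one, was not analysed here because no probe set was paired with its symbol alone. The 46 comprised 28 genes of the G2 phase and mitosis (G2/M), 16 of S phase, and the regulators Foxm1 and Mybl2.

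The hosts were C57Bl/6 mice, whose age the labels do not give, and every tumor, controls included, received adenoviral vector by injection. Injections of 25 µl buffered saline were repeated every 48 h to a total of 5, and the load of infectious virus in each had a log10 of 8, per the labels. The vector carried eGFP (green fluorescent protein, the control), IFNbeta (interferon beta, a secreted antiviral cytokine), p19Arf (the tumor suppressor that binds Mdm2 and thereby stabilises p53), or, in the combination group, p19Arf together with IFNbeta. Each group had 5 arrays, and the promoter that drives each transgene is not given in the labels. Nothing in the labels says whether arrays of 1 group came from separate animals, so p-values measure only the spread between these samples, which may be technical.

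A dividing cell copies its DNA in S phase and separates the copies in mitosis. Origins are licensed in G1 by loading the Mcm helicase with Cdc6 and Cdt1, cyclin E and its kinase then start replication, and mitotic cyclins with Cdk1 drive entry into mitosis. Many S phase genes are transcribed through E2F factors. Many G2/M genes are transcribed later through the B-Myb and Foxm1 complexes that act at CHR elements, often with nearby CCAAT boxes bound by NF-Y. In cells with working p53, its targets restrain the kinases and the DREAM complex, an assembly of Rb-family and E2F proteins, silences both sets of genes.

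Of the promoters picked as textbook examples 4 are shown, 2 of each phase. Each of these held a CHR match (G2/M) or an E2F match (S phase). Those of Ccnb1 and Ccne1 were picked as well and are not shown, and neither held a CHR or an E2F match. RefSeq sequences of assembly GRCm38.p6, from 250 bases before to 50 after the transcription start, were matched for 39 of the 47 listed genes. Capitals mark exact matches, on either strand, to CHR (TTTGAA or TTCGAA), E2F (TTTCCCGC, TTTCGCGC, TTTGCCGC or TTTGGCGC) and CCAAT. Cdk1, the mitotic kinase, lies at chr10:69352863-69353162 on the minus strand, and Cdc20, the activator of the anaphase promoting complex, at chr4:118437294-118437593 on the minus strand. Mcm5, a helicase subunit, lies at chr8:75109259-75109558 on the plus strand, and Cdc6, the licensing factor, at chr11:98907901-98908200 on the plus strand.
Cdk1: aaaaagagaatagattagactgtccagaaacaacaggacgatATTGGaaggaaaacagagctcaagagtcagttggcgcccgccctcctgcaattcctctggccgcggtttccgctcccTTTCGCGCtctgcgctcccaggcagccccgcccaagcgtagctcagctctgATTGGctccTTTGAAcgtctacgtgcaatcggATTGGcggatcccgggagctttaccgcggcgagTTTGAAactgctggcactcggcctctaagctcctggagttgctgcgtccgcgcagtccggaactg
Cdc20: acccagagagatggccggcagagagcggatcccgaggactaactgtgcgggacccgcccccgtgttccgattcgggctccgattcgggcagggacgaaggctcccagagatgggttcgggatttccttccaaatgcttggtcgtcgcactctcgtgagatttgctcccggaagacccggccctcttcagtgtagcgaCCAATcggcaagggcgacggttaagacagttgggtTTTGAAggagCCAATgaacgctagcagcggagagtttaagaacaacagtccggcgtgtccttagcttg
Mcm5: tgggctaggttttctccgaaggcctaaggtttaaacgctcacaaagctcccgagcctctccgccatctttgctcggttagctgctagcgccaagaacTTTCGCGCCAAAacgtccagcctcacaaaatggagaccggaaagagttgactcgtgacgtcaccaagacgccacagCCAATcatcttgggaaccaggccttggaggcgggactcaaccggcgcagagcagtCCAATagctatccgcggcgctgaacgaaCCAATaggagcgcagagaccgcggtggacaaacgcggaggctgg
Cdc6: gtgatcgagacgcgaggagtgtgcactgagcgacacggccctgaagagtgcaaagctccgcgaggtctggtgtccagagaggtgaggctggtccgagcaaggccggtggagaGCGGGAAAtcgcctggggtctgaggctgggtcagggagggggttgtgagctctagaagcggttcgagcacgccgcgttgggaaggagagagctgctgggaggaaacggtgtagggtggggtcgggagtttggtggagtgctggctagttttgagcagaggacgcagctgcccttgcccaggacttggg

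The Cdk1 window held 2 CHR matches, 3 CCAAT matches and 1 E2F match, and that of Cdc20 held 1 CHR and 2 CCAAT matches. In Mcm5 the capitals of the first run join 2 overlapping E2F matches on opposite strands, and the gene had 3 CCAAT matches and no CHR match. Cdc6 had 1 E2F match and neither of the other motifs. A gene with several windows was counted once, if any held a match. Across the list, a CHR match was in 20 of 25 G2/M promoters (80%), in 2 of 13 S phase promoters (15.4%) and in 21.7% of all 27025 promoters of the same length. An E2F match was in 6 of 13 S phase promoters (46.2%), those of Mcm3, Mcm5, Mcm6, Mcm7, Cdc6 and Cdt1. Of the G2/M promoters only that of Cdk1 had one (4%), against 2.6% of all promoters. CCAAT together with CHR was in 17 of 25 G2/M promoters (68%), 2 of 13 S phase promoters and 8.61% of all. The G2/M promoters without a CHR match were those of Birc5, Mad2l1, Nuf2, Ccnb1 and Cenpe, and the Ccne1 window held none of the 3 motifs. These are matches of letters in a fixed window and not sites of binding.

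All values below are log2 expression values as deposited. The 46 genes were mostly high on the arrays: 45 lay above the median level of all genes, and only Gmnn, at 7.45, lay below it. Pcna had the highest probe set mean, 12.14 over 20 arrays. Levels of different probe sets are not comparable between genes, so the order of genes is not read further.

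The arrays differed in ways that move with these genes. The standard deviation (SD) of the log2 values over all probe sets of an array, called its spread here, was 2.11 ± 0.03 with eGFP, 2.11 ± 0.04 with IFNbeta, 2.06 ± 0.05 with p19Arf and 2.06 ± 0.05 with the combination (SD, n = 5 each). The lowest values were 1.99 on combination replicate 4 and 2.0 on p19Arf replicate 4. On IFNbeta replicate 3 the 11 skin epidermis markers averaged 9.0, against 6.85 to 6.96 on the other arrays of that group. Small nucleolar RNA genes, a sign of RNA composition, averaged 10.46 on p19Arf replicate 2, 10.25 and 10.32 on combination replicates 4 and 5 and 10.05 on IFNbeta replicate 3, against 9.12 to 9.75 on the other 16 arrays. Olfactory receptor genes, a measure of signal from genes these tissues should not use, averaged 5.94 on p19Arf replicate 4 and 5.18 to 5.49 elsewhere. The part of these differences in the results below was not tested beyond the fits with the spread as a covariate.

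**Figure D1:**
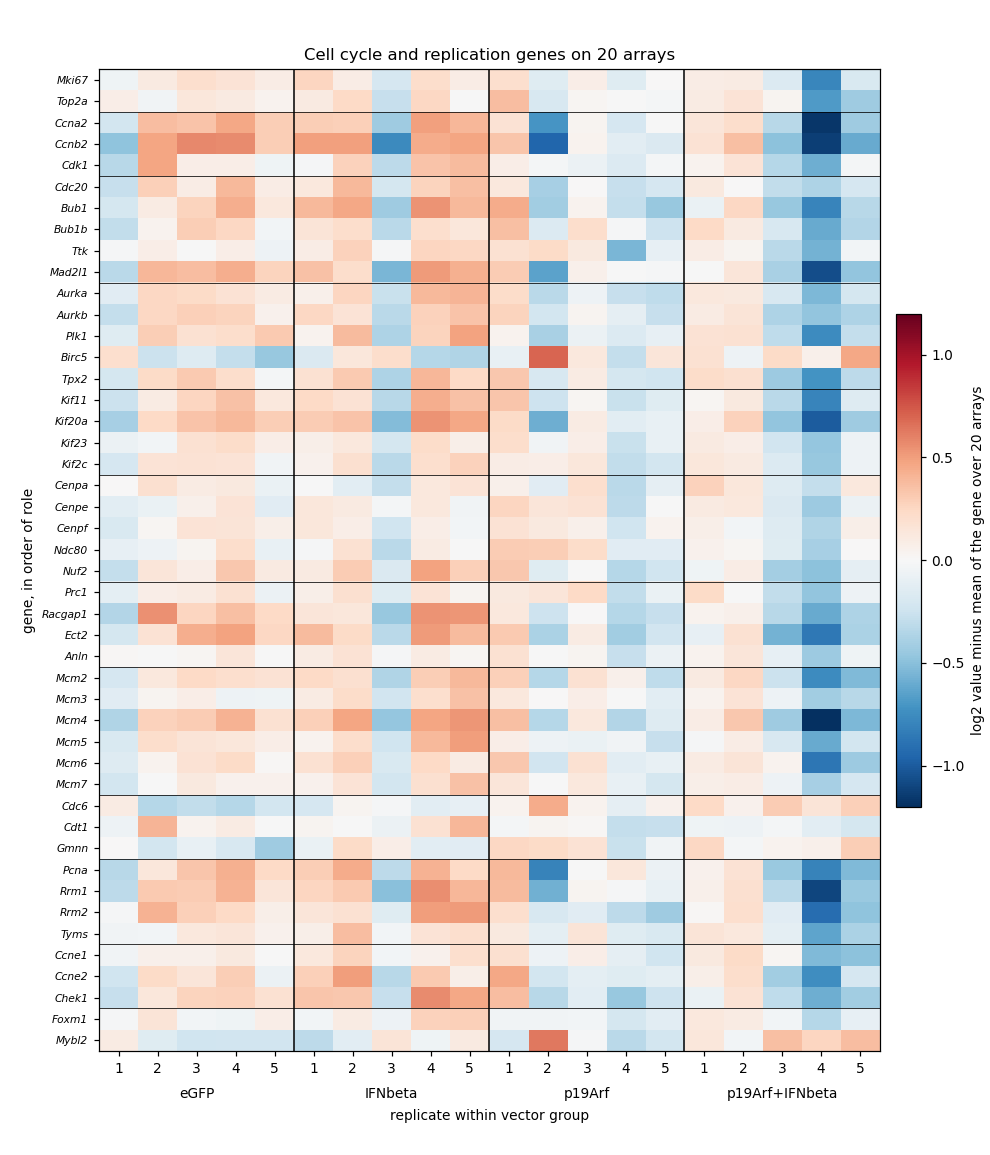
Log2 value of each of the 46 genes (vertical axis, in order of role) on each of 20 arrays (horizontal axis, replicates 1 to 5 of the 4 vector groups), as the difference from the gene's mean over all arrays; red is higher and blue lower. Combination replicate 4 is blue in nearly every gene, and eGFP replicate 1, IFNbeta replicate 3, p19Arf replicates 2, 4 and 5 and combination replicates 3 and 5 are blue in most, while Birc5, Cdc6, Gmnn and Mybl2 do not follow the rest.

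The plot of all 46 genes by array shows that most of them varied together from array to array. The mean of the 46 was lowest on combination replicate 4, at 9.28, and highest on IFNbeta replicate 4, at 10.13. With eGFP replicate 1 stood at 9.70 and the other 4 arrays at 9.90 to 10.06. IFNbeta replicate 3 stood at 9.61 against 9.99 to 10.13 on the rest of its group. With p19Arf replicates 2, 4 and 5 stood at 9.71, 9.66 and 9.71 and the other 2 at 9.92 and 10.07, and with the combination replicates 3 and 5 stood at 9.65 and 9.64 and replicates 1 and 2 at 9.95 and 9.99. The low arrays were thus 3 of 5 in each group with p19Arf and 1 of 5 in each group without it. Over the 1035 pairs of genes the median Pearson correlation across 20 arrays was 0.77, a description of arrays that share tissue makeup and spread. It was 0.75 after the group means were removed and 0.26 after the array spread was removed as well. Within groups the median was 0.78 for pairs of S phase genes, 0.78 for pairs of G2/M genes and 0.75 for mixed pairs. Correlated with the mean of the other genes over the 20 arrays, Mcm4 (0.99) and Tpx2 (0.98) followed it most closely. Birc5 (-0.54), Cdc6 (-0.53) and Mybl2 (-0.52) ran the other way. Gmnn hardly followed it in either direction (-0.19, and 0.06 after the group means were removed).

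Each vector group was compared with eGFP, and the combination with each single vector. In no comparison did any of the 46 genes pass the threshold, an adjusted p under 0.05 in limma's moderated test, 2-sided, with Benjamini-Hochberg adjustment over all 19938 genes. The share of all genes that passed was 0% as well, in each of 7 contrasts. In bulk tumors fewer dividing cells and less RNA per cell cannot be told apart.

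With the combination, 42 of 46 genes had a lower mean than with eGFP (45% of all genes did, and 62.4% of those above the median level). Their median difference was -0.26, against 0.02 over all genes, and single genes ran from -0.63 (Ccnb2) to 0.43 (Cdc6). An unadjusted p under 0.05 in limma was met on the lower side by 14 of the 46 (11.4% of all genes) and on the higher side by 4 (6.18% of all genes). No gene of the list had groups without overlap (0.547% of all genes were lower and 0.782% higher in this way). The 42 lower genes were 27 of 28 G2/M genes and 14 of 16 S phase genes, plus Foxm1. The smallest adjusted p among the 46 was 0.234 in limma, which was also the smallest over all genes. It was shared by Cdc6 and Gmnn, which were higher, and by Mad2l1, Ect2 and Rrm2, which were lower.

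With p19Arf alone, 39 of 46 genes had a lower mean than with eGFP (45.6% of all genes, and 66.3% of those above the median level), with a median difference of -0.12. One gene, Rrm2, met an unadjusted p under 0.05 on the lower side (4.4% of all genes), and Cdc6 and Gmnn did on the higher side (2.84% of all genes), all in limma. With IFNbeta alone 35 of 46 had a higher mean (44.2% of all genes). The median difference was 0.05 over the 46, 0.02 over genes above the median level and -0.02 over all genes. None of the 46 met an unadjusted p under 0.05 there in limma, against 1.34% of all genes on the higher side and 1.45% on the lower. All 16 S phase genes had a higher mean with IFNbeta than with eGFP, by 0.01 to 0.18, and 17 of 28 G2/M genes did. The 3 comparisons share the eGFP arrays.

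Set against IFNbeta alone, the combination had a lower mean in 41 of 46 genes (42.9% of all genes, and 67.9% of those above the median level), with a median difference of -0.33. An unadjusted p under 0.05 in limma was met on the lower side by 25 (14% of all genes), led by Chek1 at -0.52 with an adjusted p of 0.150. On the higher side 1 gene, Cdc6, met it (11.8% of all genes). Cdc6 was also the only gene whose arrays did not overlap between these 2 groups (1.3% of all genes were higher in this way). Set against p19Arf alone, 38 of 46 had a lower mean with the combination (53.1% of all genes). The median was -0.13 over the 46, and -0.01 both over genes above the median level and over all genes. Of the 46, 0 met an unadjusted p under 0.05 in limma (1.83% of all genes were higher and 1.24% lower at that level).

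Over both vectors with p19Arf against both without it, which uses 10 arrays on each side, 41 of 46 genes had a lower mean (42.2% of all genes, and 68% of those above the median level). The median was -0.20. An unadjusted p under 0.05 in limma was met by 24 on the lower side (18% of all genes) and by Birc5, Cdc6 and Gmnn on the higher (14.8% of all genes). The smallest adjusted p in limma was 0.061, also the smallest over all genes. It was shared by Cdc6, which was higher, and by Ect2 and Rrm2, which were lower. The interaction, which is how far the combination departs from the sum of the single vectors on the log2 scale, was below 0 in 43 of 46 genes (47.8% of all genes). Its median was -0.19 over the 46, -0.04 over genes above the median level and 0.01 over all genes. None of the 46 met an unadjusted p under 0.05 for the interaction in limma (0.813% of all genes were above 0 at that level and 0.492% below).

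**Figure D2:**
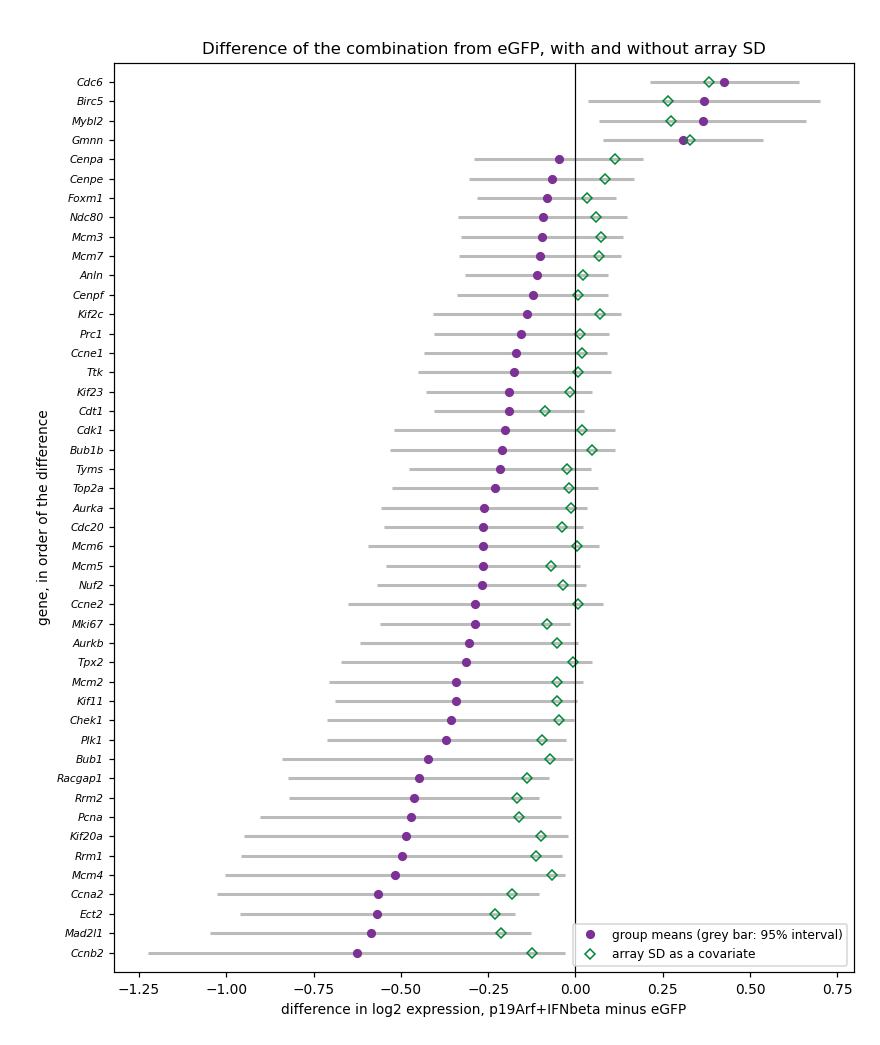
Difference in log2 expression between the combination and eGFP (horizontal axis) for each of the 46 genes, in order of the difference. Purple points are differences of group means with 95% intervals in grey, and green diamonds the estimates with the array spread as a covariate; 42 purple points lie below 0, while the diamonds lie on both sides of it, 26 below and 20 above.

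The medians depended on single arrays. Without combination replicate 4 the median difference between the combination and eGFP was -0.15, and without eGFP replicate 1 it was -0.32. For the combination against IFNbeta the median was -0.21 without combination replicate 4 and -0.40 without IFNbeta replicate 3. For the combination against p19Arf it was -0.02 without combination replicate 4. For IFNbeta against eGFP the median was 0.14 without IFNbeta replicate 3 and -0.02 without eGFP replicate 1.

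Among the proliferation markers, Mki67 encodes the Ki-67 protein of cycling cells and Top2a the topoisomerase that untangles replicated DNA. Mki67 was 11.13, 11.29, 11.38, 11.35 and 11.27 on eGFP replicates 1 to 5, and 11.44, 11.27, 10.98, 11.39 and 11.27 with IFNbeta. It was 11.38, 11.04, 11.26, 11.04 and 11.19 with p19Arf, and 11.27, 11.28, 11.02, 10.40 and 11 with the combination. Combination replicate 4 lay far below every other array, and the other 19 overlapped across groups. The difference between the combination and eGFP was -0.29 (SE 0.13, 95% interval -0.56 to -0.02), with an adjusted p of 0.264 in limma, and it was -0.14 without combination replicate 4. Top2a differed by -0.23 on the probe set used. A second Top2a probe set, at a mean of 5.80, lay below the lowest array median of 7.49 and differed by -0.001.

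Of the mitotic cyclins and their kinase, Ccnb2, a B-type cyclin of mitosis, had the widest range. Its values were 10.80, 11.75, 11.86, 11.85 and 11.58 with eGFP and 11.77, 11.77, 10.52, 11.73 and 11.75 with IFNbeta. With p19Arf they were 11.61, 10.33, 11.32, 11.15 and 11.11, and with the combination 11.45, 11.64, 10.79, 10.15 and 10.68. All 4 groups held arrays below 11, so the groups overlapped throughout. Between the combination and eGFP it differed by -0.63 (SE 0.29, interval -1.22 to -0.03), with an adjusted p of 0.267 in limma. Ccna2, the cyclin of S phase and early mitosis, differed by -0.57 and Cdk1 by -0.20.

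In the spindle checkpoint, which holds anaphase until all chromosomes are attached, Mad2l1 encodes the Mad2 inhibitor of Cdc20. Its eGFP values were 10.52, 11.24, 11.21, 11.28 and 11.11, and its IFNbeta values 11.19, 11.05, 10.29, 11.35 and 11.27. The p19Arf values were 11.15, 10.20, 10.90, 10.84 and 10.83, and those of the combination 10.84, 10.99, 10.45, 9.78 and 10.37. All 5 combination arrays lay below the other 4 eGFP arrays, but eGFP replicate 1 lay among them. The difference was -0.59 (SE 0.22, interval -1.05 to -0.13), with an adjusted p of 0.234 in limma. Bub1, the checkpoint kinase, differed by -0.42, and its relative Bub1b by -0.21. Ttk, the kinase at the top of the checkpoint, differed by -0.18, and Cdc20 by -0.26.

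The mitotic kinases gave lower means with the combination, while their partner Birc5 gave a higher one. Aurkb, the kinase of the chromosomal passenger complex, was 10.41, 10.94, 10.98, 10.96 and 10.75 with eGFP and 10.79, 10.85, 10.33, 10.22 and 10.33 with the combination. It was 10.94, 10.86, 10.37, 10.97 and 11.04 with IFNbeta and 10.96, 10.48, 10.73, 10.59 and 10.42 with p19Arf. The combination differed from eGFP by -0.30 (SE 0.15), with an adjusted p of 0.292 in limma, and all 4 groups overlapped. Aurka, the spindle pole kinase, differed by -0.26, its activator Tpx2 by -0.31, and Plk1, a kinase of mitotic entry and exit, by -0.37.

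Birc5, or survivin, is a subunit of the same passenger complex and was named after its values were seen, as were Mybl2 and Ect2. On the eGFP arrays it was 9.82, 9.36, 9.46, 9.33 and 9.16, and on the IFNbeta arrays 9.44, 9.75, 9.83, 9.27 and 9.25. On the p19Arf arrays it was 9.53, 10.31, 9.74, 9.33 and 9.76, and on the combination arrays 9.80, 9.55, 9.84, 9.68 and 10.08. Its highest eGFP value was on replicate 1, where the mean of the G2/M genes was the lowest of its group (9.84), and its highest of all on p19Arf replicate 2. The combination differed from eGFP by 0.37 (SE 0.16, interval 0.04 to 0.70), with an adjusted p of 0.255 in limma.

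The kinesins move chromosomes and the spindle. Kif11, the motor that separates the spindle poles, was 9.86, 10.21, 10.37, 10.47 and 10.24 with eGFP and 10.35, 10.29, 9.78, 10.55 and 10.47 with IFNbeta. With p19Arf it was 10.45, 9.87, 10.14, 9.85 and 9.97, and with the combination 10.14, 10.23, 9.79, 9.32 and 9.96. The groups overlapped, and the lowest array was again combination replicate 4. Its difference from eGFP was -0.34 (SE 0.17), with an adjusted p of 0.288 in limma, and it was -0.20 without combination replicate 4. Kif20a, needed for cytokinesis, differed by -0.49, Kif23, a partner of Racgap1, by -0.19, and Kif2c, which depolymerises microtubules at centromeres, by -0.14.

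At the kinetochore 4 of 5 genes differed by at most 0.12 in size and Nuf2 by more. Cenpa, the histone variant that marks centromeres, was 10.33, 10.52, 10.42, 10.44 and 10.25 with eGFP and 10.32, 10.20, 10.04, 10.45 and 10.49 with IFNbeta. Its p19Arf values were 10.39, 10.19, 10.53, 10.00 and 10.22, and its combination values 10.60, 10.46, 10.17, 10.04 and 10.45. The groups covered much the same range, and the combination differed from eGFP by -0.05 (SE 0.12, interval -0.29 to 0.19), with an adjusted p of 0.858 in limma. With the array spread as a covariate its estimate was 0.11, and with quantile normalization 0.10. Cenpe, a kinetochore motor, differed by -0.07, Cenpf by -0.12, and Ndc80 and Nuf2, which hold the microtubule, by -0.09 and -0.27.

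Of the cytokinesis genes, Anln, an actin-binding protein of the cleavage furrow, had the narrowest range over the 20 arrays, 0.62. It was 11.04, 11.02, 11.05, 11.17 and 11.02 with eGFP and 11.07, 11.17, 10.93, 10.59 and 10.98 with the combination, a difference of -0.11 (SE 0.10) with an adjusted p of 0.575 in limma. That sign turned with the spread as a covariate (0.02) and with quantile normalization (0.06), and the value was -0.02 without combination replicate 4 and -0.17 without combination replicate 2. With IFNbeta Anln was 11.13, 11.20, 11.01, 11.13 and 11.05, and with p19Arf 11.21, 11.02, 11.06, 10.75 and 10.96. Ect2, which activates RhoA at the furrow, varied far more. Its values were 9.45, 9.83, 10.09, 10.14 and 9.91 with eGFP and 10.04, 9.89, 9.33, 10.17 and 10.04 with IFNbeta. They were 9.97, 9.28, 9.76, 9.24 and 9.43 with p19Arf and 9.56, 9.84, 9.09, 8.80 and 9.28 with the combination. The groups overlapped, and the difference between the combination and eGFP, -0.57 (SE 0.19, interval -0.96 to -0.17), had an adjusted p of 0.234 in limma. Racgap1, its partner at the spindle midzone, differed by -0.45 and Prc1, which bundles midzone microtubules, by -0.16.

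The 6 subunits of the Mcm helicase, which unwinds DNA at the fork, all had lower means with the combination than with eGFP, by 0.10 to 0.52 in size. Mcm6, the subunit with the highest mean, was 10.24, 10.44, 10.57, 10.62 and 10.41 with eGFP and 10.58, 10.68, 10.21, 10.63 and 10.49 with IFNbeta. It was 10.72, 10.16, 10.58, 10.27 and 10.30 with p19Arf and 10.49, 10.55, 10.44, 9.53 and 9.96 with the combination. Combination replicates 4 and 5 lay below all other arrays, and the other 3 lay within the eGFP range. The difference was -0.26 (SE 0.16), with an adjusted p of 0.388 in limma. It was -0.10 without combination replicate 4 and 0.004 with the spread as a covariate. Mcm4 differed most, by -0.52 (SE 0.24), with an adjusted p of 0.263 in limma.

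Of the 3 licensing genes Cdc6 and Gmnn had higher means with the combination and Cdt1 a lower one. Cdc6, which loads the helicase at origins, was 8.16, 7.72, 7.76, 7.72 and 7.84 with eGFP and 7.86, 8.09, 8.04, 7.93 and 7.96 with IFNbeta. It was 8.10, 8.50, 8.10, 7.95 and 8.11 with p19Arf and 8.30, 8.11, 8.36, 8.21 and 8.34 with the combination. All combination arrays lay above all IFNbeta arrays, and above 4 of the 5 eGFP arrays, eGFP replicate 1 being the exception at 8.16. The difference between the combination and eGFP was 0.43 (SE 0.10, interval 0.21 to 0.64), with an adjusted p of 0.234 in limma, and that between p19Arf and eGFP 0.31 (SE 0.10), with an adjusted p of 0.661 in limma. Without eGFP replicate 1, the array whose high value narrows this gap, the former was 0.51 with an adjusted p of 0.0437 in limma, and 84 genes in all passed. With any other single array left out, Cdc6 did not pass for the combination against eGFP. With the spread as a covariate the difference between the combination and eGFP was 0.38, with an adjusted p of 0.603 in limma.

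Gmnn encodes geminin, the inhibitor of Cdt1 that keeps origins from firing again. It was 7.45, 7.23, 7.36, 7.26 and 7.02 with eGFP and 7.37, 7.68, 7.53, 7.32 and 7.31 with IFNbeta. With p19Arf it was 7.70, 7.68, 7.62, 7.18 and 7.41, and with the combination 7.70, 7.43, 7.49, 7.51 and 7.75. The lowest combination array, 7.43, lay between the 2 highest eGFP arrays. The difference was 0.31 (SE 0.11, interval 0.08 to 0.54), with an adjusted p of 0.234 in limma, and Gmnn was the only listed gene below the median level of all genes. Cdt1, the loading factor that geminin blocks, was 8.97, 9.44, 9.07, 9.13 and 9.03 with eGFP and 9.06, 9.03, 8.96, 9.21 and 9.43 with IFNbeta. It was 9.01, 9.06, 9.04, 8.74 and 8.75 with p19Arf and 8.98, 8.97, 9.01, 8.90 and 8.82 with the combination. The difference between the combination and eGFP was -0.19 (SE 0.10), with an adjusted p of 0.338 in limma, and it was -0.11 without eGFP replicate 2.

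**Figure D3:**
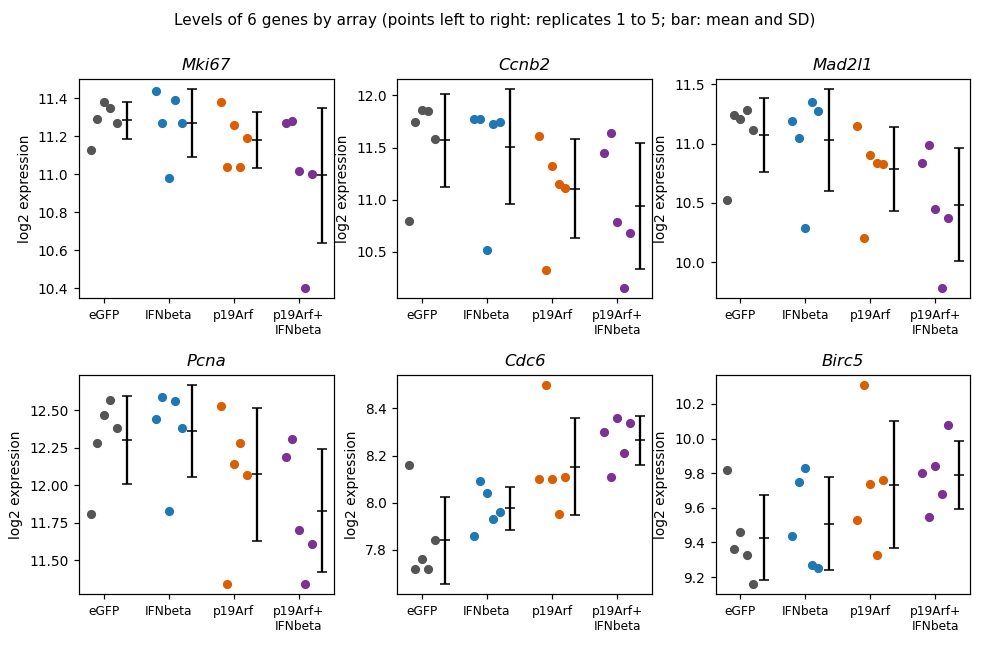
Log2 expression (vertical axes, not starting at 0) of Mki67, Ccnb2, Mad2l1, Pcna, Cdc6 and Birc5 on each array of the 4 vector groups; points are replicates 1 to 5 from left to right and bars the mean and SD of 5 arrays. The first 4 genes have single low arrays in several groups, and Cdc6 and Birc5 have their high values on some of the same arrays, such as eGFP replicate 1 and p19Arf replicate 2.

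In the group of the sliding clamp and nucleotide synthesis, Pcna encodes the clamp that keeps polymerases on DNA. It was 11.81, 12.28, 12.47, 12.57 and 12.38 with eGFP and 12.44, 12.59, 11.83, 12.56 and 12.38 with IFNbeta. With p19Arf it was 12.53, 11.34, 12.14, 12.28 and 12.07, and with the combination 12.19, 12.31, 11.70, 11.34 and 11.61. The lowest arrays, at 11.34, were p19Arf replicate 2 and combination replicate 4, and the groups overlapped. The difference between the combination and eGFP was -0.47 (SE 0.21, interval -0.90 to -0.04), with an adjusted p of 0.259 in limma. A second Pcna probe set gave nearly the same values (mean 12.14, difference -0.47), so the value may include a near-identical copy and is uncertain to that extent. Rrm1 and Rrm2, the subunits of ribonucleotide reductase, differed by -0.50 and -0.46, and Tyms, thymidylate synthase, by -0.22.

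Ccne1 encodes cyclin E1, which starts S phase with its kinase. Its values were 8.90, 9.0, 9.0, 9.06 and 8.94 with eGFP and 9.07, 9.21, 8.91, 8.99 and 9.14 with IFNbeta. They were 9.13, 8.88, 9.02, 8.83 and 8.70 with p19Arf and 9.06, 9.17, 8.97, 8.41 and 8.45 with the combination. Combination replicates 4 and 5 lay below all other arrays and the other 3 within or above the eGFP range, and the difference from eGFP was -0.17 (SE 0.13), with an adjusted p of 0.486 in limma and a sign that turned with the spread as a covariate (0.02). It was -0.07 without combination replicate 4 and -0.26 without combination replicate 2. Ccne2, the second cyclin E, differed by -0.29. Chek1, the kinase of the replication checkpoint, had the highest mean of these genes, 8.99 against 8.94 for Ccne1. It was 8.71, 9.12, 9.25, 9.26 and 9.17 with eGFP and 9.32, 9.31, 8.71, 9.55 and 9.45 with IFNbeta. With p19Arf it was 9.36, 8.65, 8.86, 8.53 and 8.74, and with the combination 8.91, 9.16, 8.68, 8.40 and 8.57. Between the combination and eGFP Chek1 differed by -0.36 (SE 0.17), with an adjusted p of 0.278 in limma. That estimate was -0.05 with the spread as a covariate.

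The 2 regulators differed from each other. Foxm1, the forkhead factor of G2/M genes, was 9.56, 9.73, 9.54, 9.52 and 9.65 with eGFP and 9.54, 9.67, 9.51, 9.85 and 9.86 with IFNbeta. It was 9.53, 9.53, 9.54, 9.36 and 9.45 with p19Arf and 9.70, 9.67, 9.54, 9.23 and 9.47 with the combination. Its groups overlapped, with a difference of -0.08 (SE 0.10) between the combination and eGFP, an adjusted p of 0.677 in limma, and a sign that turned with the spread as a covariate (0.03). It was -0.01 without combination replicate 4 and -0.13 without combination replicate 1. Mybl2, which encodes B-Myb, was 9.60, 9.36, 9.26, 9.27 and 9.27 with eGFP and 9.19, 9.37, 9.66, 9.45 and 9.61 with IFNbeta. It was 9.30, 10.13, 9.49, 9.18 and 9.28 with p19Arf and 9.64, 9.47, 9.86, 9.76 and 9.87 with the combination. The combination lay above 4 of 5 eGFP arrays, and the difference was 0.36 (SE 0.14, interval 0.07 to 0.66), with an adjusted p of 0.235 in limma. As with Birc5, its eGFP maximum was replicate 1, at 9.60, and its overall maximum p19Arf replicate 2, at 10.13.

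The level of most of these genes followed the spread of the array. In a limma model with 1 mean per group and the array SD as a covariate, 42 of 46 genes were higher on arrays of wider spread at an adjusted p under 0.05 (27.3% of all genes). Among genes above the median level, where a wider spread by itself goes with higher values, 49.9% did so, as did 42 of the 45 listed genes there. None of the 46 was lower on arrays of wider spread, against 26.2% of all genes. The median slope was 0.45 on the log2 scale for each 0.1 of array SD, against -0.07 over all genes. Ccnb2 had the steepest slope, 1.01 (SE 0.14, adjusted p 1.4e-05 in limma), followed by Mcm4 with 0.91 (SE 0.08). The 4 genes that did not pass were Birc5 (-0.21, SE 0.14), Mybl2 (-0.18, SE 0.12), Cdc6 (-0.09, SE 0.09) and Gmnn (0.04, SE 0.10). Quantile normalization makes the spreads of the arrays equal, so its slopes were taken on the array SD from before that step. There 26 of 46 genes passed on the higher side (16.9% of all genes) and 2 on the lower (17.0% of all genes).

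**Figure D4:**
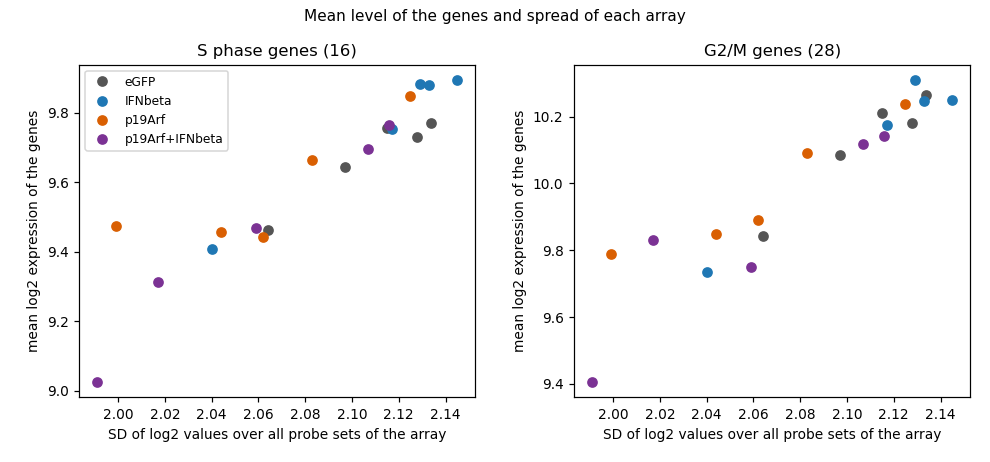
Mean log2 expression of the 16 S phase genes (left) and the 28 G2/M genes (right) on each array against the SD of the log2 values over all probe sets of that array; colours are the vector groups. The 10 arrays with a spread above 2.1 have higher means of both kinds than the other 10, and the combination array at 1.99 has the lowest.

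With the spread as a covariate the group differences of the 46 genes became small or turned. The median difference between the combination and eGFP was -0.02 in place of -0.26, with 26 of 46 genes lower (56.1% of all genes). Between p19Arf and eGFP it was 0.09 in place of -0.12, with 36 of 46 genes higher (50.4% of all genes). Over both vectors with p19Arf against both without, the median was 0.02 in place of -0.20. The medians for the combination against p19Arf (-0.11) and for the interaction (-0.15) moved less, and 37 of 46 genes (53.5% of all genes) and 41 of 46 (47.4% of all genes) were below 0 in them. No gene of the list passed in any of the 7 contrasts of this model either, with 0% of all genes called. The smallest adjusted p among the 46 was 0.603 for the combination against eGFP in limma, that of Cdc6. Because the p19Arf groups hold more arrays of narrow spread, the spread and the p19Arf vector cannot be fully told apart in these data.

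S phase genes and G2/M genes moved together, and the balance between them differed little between groups. The mean of the 16 S phase genes minus that of the 28 G2/M genes was -0.44 ± 0.04 with eGFP, -0.38 ± 0.04 with IFNbeta, -0.40 ± 0.05 with p19Arf and -0.40 ± 0.09 with the combination (SD, n = 5 each). The eGFP arrays ran from -0.49 to -0.38, and every other group overlapped this range. From eGFP, IFNbeta differed by 0.07 (SE 0.04), p19Arf by 0.05 (SE 0.04) and the combination by 0.05 (SE 0.04). With the spread as a covariate these were 0.07, 0.04 and 0.03. The extremes were both in the combination group, replicate 5 at -0.52 and replicate 3 at -0.28. No p is given for these means, since the genes were chosen with results known. The slope of the difference on the spread was -0.03 (SE 0.03) for each 0.1 of array SD, while S phase and G2/M means had slopes of 0.45 (SE 0.04) and 0.48 (SE 0.05).

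**Figure D5:**
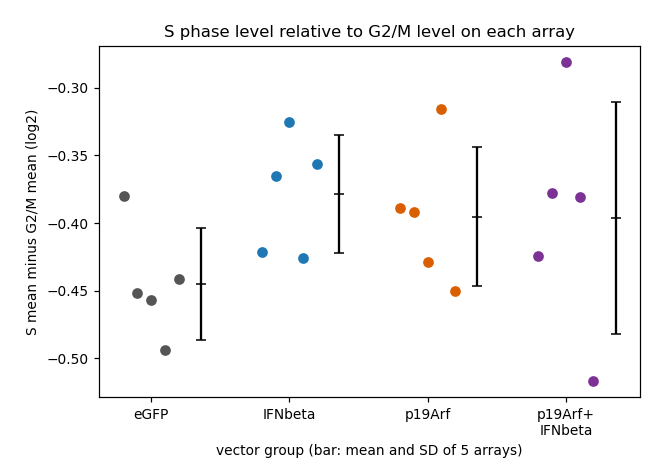
Mean log2 level of 16 S phase genes minus that of 28 G2/M genes (vertical axis) on each array of the 4 vector groups; points are replicates 1 to 5 from left to right and bars the mean and SD of 5 arrays. All groups overlap, and the combination group has both the highest value, -0.28, and the lowest, -0.52.

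By role, the median difference between the combination and eGFP was lowest for the mitotic cyclins and Cdk1 (-0.57, 3 genes) and for the clamp and nucleotide synthesis genes (-0.47, 4 genes). It was -0.30 for cytokinesis and for the mitotic kinases, -0.27 for the kinesins, -0.26 for the spindle checkpoint and for the Mcm helicase, and -0.09 for the kinetochore. It was -0.29 for cyclin E and Chek1, -0.26 for Mki67 with Top2a, and 0.14 for the transcription factors. The licensing genes had a median of 0.31. Median slopes on the spread were also largest for the mitotic cyclins (0.78) and the clamp group (0.61). They were 0.31 for the kinetochore, 0.04 for the licensing genes and 0.03 for the transcription factors. Between these the order was not kept, with 0.59 for cyclin E and Chek1, 0.52 for the spindle checkpoint and 0.48 for cytokinesis.

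Other genes of the same machinery were taken from 8 lists, and none of their genes passed in any contrast in limma (0% of all genes). Beside the counts of lower means with the combination stand 45% of all genes, and 62.4% of those above the median level. Of 14 genes of the origin recognition complex and helicase partners, 12 had a lower mean with the combination than with eGFP, with a median of -0.26. Orc3, an origin recognition subunit, had the smallest p among them for p19Arf (-0.28) and for the combination (-0.43, adjusted p 0.234 in limma), and Gins3, a helicase partner, for IFNbeta (0.19). Of 13 condensin and cohesin genes 12 were lower with the combination (45% of all genes), with a median of -0.24. Smc4, a condensin ATPase, was at -0.42 for the combination, Ncaph, a subunit of condensin I, at -0.37 for p19Arf, and Ncapd3, of condensin II, at 0.14 for IFNbeta.

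The anaphase promoting complex is the ligase that marks mitotic cyclins for destruction. Of its 14 genes 11 were lower with the combination (45% of all genes, and 62.4% of those above the median level). Their median was -0.20. Anapc10 was at -0.44 for the combination, Cdc26 at -0.30 for p19Arf and Anapc5 at -0.12 for IFNbeta. Of 19 replication polymerases and factors 14 were lower (45% of all genes), with a median of -0.15. Rfc4, a subunit of the clamp loader, was at -0.87 (SE 0.39) for p19Arf, and Pold2, an accessory subunit of polymerase delta, at -0.43 for the combination. Pole, the catalytic subunit of polymerase epsilon, was at 0.17 for IFNbeta.

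Of 17 genes of the Rb, E2F and DREAM group 14 were lower with the combination, with a median of -0.13. The share was 45% of all genes, and 62.4% of those above the median level. Lin9, a core subunit of DREAM and of the B-Myb complex, was at -0.42 for p19Arf and -0.51 (SE 0.19) for the combination, with adjusted p of 0.661 and 0.234 in limma, and E2f3 at 0.16 for IFNbeta. Of 7 D cyclins and G1 kinases 6 were lower (45% of all genes), with a median of -0.12. Ccnd1, cyclin D1, differed from eGFP by 0.02 with IFNbeta, -0.09 with p19Arf and -0.12 (SE 0.11) with both. Cdk4, its kinase, was at -0.29 for the combination, Ccnd3 at -0.21 for p19Arf and Cdc25a, the phosphatase that activates cyclin E kinase, at 0.14 for IFNbeta.

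Of 5 inhibitors of cyclin-dependent kinases 2 were lower with the combination (45% of all genes), with a median of 0.16. Cdkn2c, an inhibitor of Cdk4 and Cdk6, was one of these, at -0.64 (SE 0.20) for the combination and -0.25 for IFNbeta. Cdkn2d, another such inhibitor and a different gene product from p19Arf, was at 0.22 for p19Arf. Cdkn1a, the p53 target p21, was not analysed here, since its probe set carries a second symbol. Of 25 p53 target genes 23 had a higher mean with IFNbeta than with eGFP (44.2% of all genes), with a median of 0.16, and 15 did with p19Arf (54.4% of all genes), with a median of 0.06. With the combination 17 were higher (55% of all genes), with a median of 0.10, and the median for the combination against IFNbeta was -0.09. An unadjusted p under 0.05 in limma was met by 6 of the 25 with IFNbeta, 2 with p19Arf and 8 with the combination, in either direction. Of all 19938 genes, 557, 1445 and 3513 met it in these 3 comparisons. Btg2, an antiproliferative target, was at 0.53 (SE 0.16) for the combination, Zmat3, an RNA-binding target, at 0.26 for p19Arf, and Eda2r, a receptor, at 0.44 for IFNbeta, with adjusted p of 0.234, 0.661 and 0.9998 in limma. The slope on the spread passed on the higher side in 11 of 14 origin genes, 12 of 13 condensin and cohesin genes, 10 of 14 anaphase promoting complex genes, 14 of 19 polymerase genes and 12 of 17 Rb, E2F and DREAM genes. It did so in 5 of 7 D cyclins and G1 kinases, 7 of 25 p53 targets and 1 of 5 inhibitors. The share was 27.3% of all genes, and 49.9% of those above the median level.

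Markers of host cells moved with the same arrays in part. The macrophage and monocyte list averaged 10.27 to 10.94 on the combination arrays and 10.55 to 10.94 on the eGFP arrays, and 12 of its 14 genes were higher on arrays of wider spread (27.3% of all genes, and 49.9% of those above the median level). Of 11 skin epidermis genes 9, of 51 small nucleolar RNA genes 33 and of 1027 olfactory receptor genes 429 were lower on arrays of wider spread, all at an adjusted p under 0.05 in limma (26.2% of all genes). The skin epidermis list averaged 9.0 on IFNbeta replicate 3, where the spread was 2.04, and 6.85 to 7.74 on the other arrays. How far the slopes of the skin genes rest on that array was not tested. The 18 skeletal muscle genes all had a higher mean with each vector than with eGFP, with a median of 0.80 for IFNbeta, of 0.51 for p19Arf and of 0.84 for both, and 0 of 18 followed the spread. Their averages ran from 7.31 to 7.89 with eGFP, 7.29 to 9.23 with IFNbeta, 7.29 to 8.75 with p19Arf and 7.39 to 8.87 with the combination. For the combination against eGFP the medians were 0.31 for fibroblast and matrix, 0.35 for neutrophil, 0.22 for T cell, 0.07 for adipocyte, -0.02 for endothelial, -0.05 for B and plasma cell, -0.10 for erythroid, -0.14 for skin epidermis and -0.16 for macrophage and monocyte genes. None of the genes of these 10 lists passed in any contrast, and their part in the results on the cell cycle genes was not tested. No list of markers that define LLC-1 cells was used.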

How the data were processed

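The 20 arrays, 5 for each of 4 vector groups assigned from the sample labels, came as 1 deposited table of 35556 probe sets. Its values ran from 2.33 to 14.7 with array medians of 7.49 to 7.61, and were read as deposited log2 values, summarised and normalized by the authors, with the base taken from this range. The submitters' processing notes name Affymetrix Expression Console and GCOS; how values were summarised or corrected for background is not given in the sources. No normalization was added. No detection call is given. The number of arrays limits the precision.

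Names came from the array's annotation table, updated with GRCm38.p6 gene symbols: 21789 probe sets had 1 symbol, 1621 several and 12146 none. This left 19938 genes, and low values were not filtered. Limma 3.58.1 in R 4.3.3 (lmFit, eBayes) was fitted to all 20 arrays with 1 mean per group (16 residual degrees of freedom, prior 6.06), tested on simulated data first. A gene passed at a Benjamini-Hochberg adjusted p under 0.05 within a contrast. The same model with the array SD added gave slopes and adjusted differences. Alternatives were a replicate block, quantile normalization, median centring, the mean over probe sets, genes above the median level, trended and robust moderation, array weights, fits of 2 groups, and arrays left out.

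Genes, lists, contrasts and alternatives were chosen with earlier results of these data known. Values on every array are given for the member with the highest mean in each of 12 roles and those with the smallest p against eGFP. They are also given for Ccne1, which had a lower mean than Chek1 in its role, and for Birc5, Mybl2 and Ect2. From each pathway list the gene with the smallest p in each comparison with eGFP is named, plus Ccnd1. Replicate numbers were not used as pairs in the fits.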

Additional observations from a re-analysis of the deposited data

Results flagged for a closer look

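In 80 groups of 5 arrays, for 20 genes and gene means, the highest or lowest array was compared with the gap to its nearest neighbour, and 10 stood apart by Dixon's criterion of 0.71. Chance alone gives about 1 in 20 such groups, and the 10 are not independent, since they come from a few arrays.

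On eGFP replicate 1, Ccnb2 was 10.8 against 11.58 to 11.86 on the rest of its group, and Mad2l1 was 10.52 against 11.11 to 11.28. On the same array Cdc6 was 8.16 against 7.72 to 7.84, and Mybl2 was 9.6 against 9.26 to 9.36. On IFNbeta replicate 3, Ccnb2 was 10.52 against 11.73 to 11.77, Mad2l1 was 10.29 against 11.05 to 11.35, and Aurkb was 10.37 against 10.86 to 11.04. There Pcna was 11.83 against 12.38 to 12.59, and the mean of the G2/M genes was 9.73 against 10.17 to 10.31. On eGFP replicate 4, Anln was 11.17 against 11.02 to 11.05.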

How the results depend on the processing

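No listed gene passed, and the counts stayed at 0, with the replicate block, quantile normalization, median centring, the mean over probe sets, trended and robust moderation, fits of 2 groups, and the array SD as a covariate with or without the block. Deviations of same-numbered arrays from their group means correlated from -0.62 to 0.66, with 11 of 30 pairs over 0.1. Whether replicate numbers pair the arrays cannot be told from this, since deviations also move with the spread and the labels state no pairing. Since each group holds each number once, a replicate block cannot change a difference of group means, and it also left 0 listed genes past the threshold. With the array SD as a covariate the median difference was -0.0166 for the combination against eGFP, -0.0512 against IFNbeta and 0.0223 with against without p19Arf, and between the combination and eGFP Cenpa (0.112), Anln (0.0208), Mcm6 (0.0042), Ccne1 (0.0182) and Foxm1 (0.0335) turned sign. With the replicate block as well these were -0.0155, -0.0462 and 0.032, and Cenpa 0.114, Anln 0.0034, Mcm6 0.0144, Ccne1 0.0026 and Foxm1 0.0284. Quantile normalization turned Cenpa (0.097), Anln (0.0625) and Foxm1 (0.0051), and gave 26 genes that followed the spread measured before that step. It left 37 of 46 genes lower with the combination than with eGFP and 29 of 46 with p19Arf, against 42 and 39. Without the 5 arrays of lowest SD, Cenpa (0.0185), Mcm6 (0.034), Ccne1 (0.0828) and Foxm1 (0.0316) turned, the S minus G2/M difference was 0.0615 for the combination against p19Arf and 0.0089 for the interaction, and 32 of 46 genes were lower with the combination. The cause of these changes was not tested. Genes above the median level alone, with fewer genes tested, gave 4 listed genes (945 genes in all) with against without p19Arf. Array weights gave 1 listed gene for the combination against eGFP (Cdc6, 0.47, adjusted p 0.0366 in limma; 166 genes in all), 11 against IFNbeta (1730 genes) and 25 with against without p19Arf (5197 genes).

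With single arrays left out, 0 to 1 listed genes passed for the combination against eGFP, the 1 being Cdc6 without eGFP replicate 1 (0.51, adjusted p 0.0437 in limma; 84 genes in all). For the combination against IFNbeta it was 0 to 19, the 19 without IFNbeta replicate 3 (2351 genes). With against without p19Arf it was 0 to 22: 22 without IFNbeta replicate 3 (3892 genes), 19 without eGFP replicate 1 (2943 genes), 17 without combination replicate 2 (3092 genes), 11 without p19Arf replicate 1 (2797 genes) and 5 without combination replicate 1 (1241 genes). With eGFP replicate 1 or IFNbeta replicate 3 left out and the array SD as a covariate, an alternative chosen after seeing the data, 0 listed genes passed in every contrast. The median difference ran from -0.32 to -0.15 for the combination against eGFP, -0.40 to -0.21 against IFNbeta, -0.19 to -0.02 against p19Arf, -0.02 to 0.14 for IFNbeta against eGFP, -0.18 to -0.08 for p19Arf against eGFP, -0.24 to -0.16 with against without p19Arf and -0.28 to -0.09 for the interaction. Cenpa ran from -0.113 to 0.0289, the latter without combination replicate 4. The S minus G2/M difference ran from 0.02 to 0.08 for the combination against eGFP, -0.05 to 0.01 against IFNbeta and -0.03 to 0.03 against p19Arf. The count of genes that followed the spread ran from 41 to 42.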
